A study of Mus musculus with 12 samples.

Results

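miR-146a and miR-146b, on the array as mmu-miR-146a and mmu-miR-146b, are a pair of mouse miRNAs that were selected on their measured values in this microRNA array study, namely for large falls with tunicamycin. They were taken by their array names and are 2 of 611 mouse miRNAs printed there and 2 of the 256 that passed a detection filter. The changes against untreated cells that chose them are therefore given as a description, with no test. The cells were embryonic fibroblasts from mice (MEFs), with C57BL/6 as their background strain, deficient in the transcription factor XBP1 (labelled XBP1KO, here KO) or not (labelled XBP1WT, here WT). They were untreated, or received 2 ug/mL tunicamycin for 12 h or for 24 h. This gave 6 groups of 2 arrays: untreated KO and WT, KO and WT at 12 h, and KO and WT at 24 h. The study's design text describes the 2 arrays of a group as independent experiments. The age of the embryos, the number of embryos or lines behind a genotype and the way in which XBP1 was removed are not given in the sources used here. The arrays carry no mRNA probes, so the deletion itself was not checked.

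A mature miRNA of about this length pairs with target mRNAs mainly through its seed, the bases from the second to the eighth, and lowers their translation and stability. The miR-146 miRNAs are best known as brakes on innate immune signalling: transcription of the miR-146a gene is driven by NF-kB, and miR-146a in turn represses Traf6 and Irak1, signalling proteins that act between Toll-like or interleukin-1 receptors and NF-kB. Tunicamycin stops N-linked glycosylation, which loads the endoplasmic reticulum with misfolded protein and activates the unfolded protein response. One branch of that response runs through IRE1, which splices Xbp1 mRNA so that the active transcription factor XBP1 is made. The study's design asks for miRNAs that respond to tunicamycin in a manner dependent on XBP1.

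The mature sequences are shown because both miRNAs carry the same seed and differ little elsewhere, which matters for how an array tells them apart. They are the RefSeq entries of the assembly GRCm38.p6, written 5′ to 3′ with the seed in capitals. The array uses older names without an arm, which match the 5p arms.
miR-146a-5p: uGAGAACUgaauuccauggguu
miR-146b-5p: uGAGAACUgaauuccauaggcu
Counted from the 5′ end of miR-146a, the differences are G18A and U21C, and 20 of 22 bases are identical. Of 1679 mature mouse miRNAs in the RefSeq table, these 2 alone carried the seed GAGAACU. The closest other mature sequence was 7 edits from miR-146a and 8 edits from miR-146b. The probes' own sequences were not in the files used here, so how far each probe distinguishes the 2 miRNAs was not tested.

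The hairpins show that the 2 miRNAs come from separate genes. The mature 5p arm is in capitals.
Mir146 hairpin: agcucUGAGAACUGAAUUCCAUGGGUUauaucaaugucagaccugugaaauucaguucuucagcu
Mir146b hairpin: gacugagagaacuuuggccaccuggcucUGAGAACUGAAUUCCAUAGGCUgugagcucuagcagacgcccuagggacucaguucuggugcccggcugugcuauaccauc
In GRCm38.p6 the Mir146 hairpin of 65 bases lies at chr11:43374397-43374461 on the minus strand, with miR-146a-5p at chr11:43374435-43374456. It overlaps no other gene of the RefSeq table, and its neighbours there are Atp10b and Gm5782. The Mir146b hairpin of 109 bases lies at chr19:46342762-46342870 on the plus strand, with miR-146b-5p at chr19:46342790-46342811. It overlaps the long noncoding RNA gene Gm36493 and lies between Cuedc2 and 2310034G01Rik.

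Each miRNA was read by 2 probes of 10 spots each, and no spot of theirs was saturated. After tunicamycin the summed unscaled signal of all mouse miRNAs ran from 35460 to 78150 on KO arrays and from 14080 to 67420 on WT arrays. On untreated arrays it was 184200 and 185600 in KO and 94810 and 108000 in WT. Between 120 and 222 mouse miRNAs were detected per array. All untreated arrays were on slide 1 and all tunicamycin arrays on slide 2, so treatment and slide cannot be told apart in any comparison of treated with untreated cells. The slides were read in 4 scans, each of which held both genotypes and, on slide 2, both times, so the genotype and time comparisons lie within a slide and a scan.

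The fibroblast label was checked against marker miRNAs. Of 11 fibroblast and mesenchymal markers on the array, 8 were detected on all 12 arrays. The 7 epithelial markers were detected on no array, and of 8 blood cell markers all but miR-155 were detected on none. One of 2 endothelial markers was detected on no array. In these bulk samples, a smaller share of cells that hold a miRNA and less of it per cell cannot be told apart.

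The probe signals before any scaling show the pattern directly. Probe A_54_P2006, which reads miR-146b, had mean spot signals of 825 and 867 on untreated KO arrays and 225 and 263 on untreated WT arrays. After 12 h it had 12.6 and 19.9 in KO and 12.5 and 18.7 in WT, and after 24 h it had 19.7 and 23.3 in KO and 6.54 and 5.42 in WT. Every tunicamycin array was thus far under every untreated array on this probe.

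The other miR-146b probe, A_54_P2005, lay between -1.92 and 1.73 on the 8 tunicamycin arrays, with none of its 10 spots well above background on any of them. On untreated arrays it had 142 and 149 in KO and 37.8 and 44.1 in WT. After tunicamycin, miR-146b was therefore read through 1 probe only, A_54_P2006, and that one was weak on some arrays. At 12 h it had 10 and 3 of 10 spots well above background in KO and 10 and 0 in WT, and at 24 h it had 10 and 10 in KO and 2 and 0 in WT. The software's detection call is separate and was met on 7 of these 8 arrays.

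For miR-146a, probe A_54_P2317 had 197 and 231 on untreated KO arrays and 77.9 and 108 on untreated WT arrays. After 12 h it had 16.3 and 29.1 in KO and 5.96 and 9.56 in WT. After 24 h it had 19.5 and 0.90 in KO and 2.47 and 5.10 in WT. All 10 of its spots were well above background on the 4 untreated arrays, on both KO arrays at 12 h and on replicate 1 of KO at 24 h, and at most 1 spot was on any other array.

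Probe A_54_P2318, the second one for miR-146a, lay between -2.10 and 2.77 on the tunicamycin arrays, and had 34.5 and 40.9 on untreated KO arrays and 13.2 and 18.6 on untreated WT arrays. Already in untreated WT cells only 1 and 7 of its 10 spots were well above background. Both probes of a miRNA were lower on every tunicamycin array than on every untreated array.

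**Figure D1:**
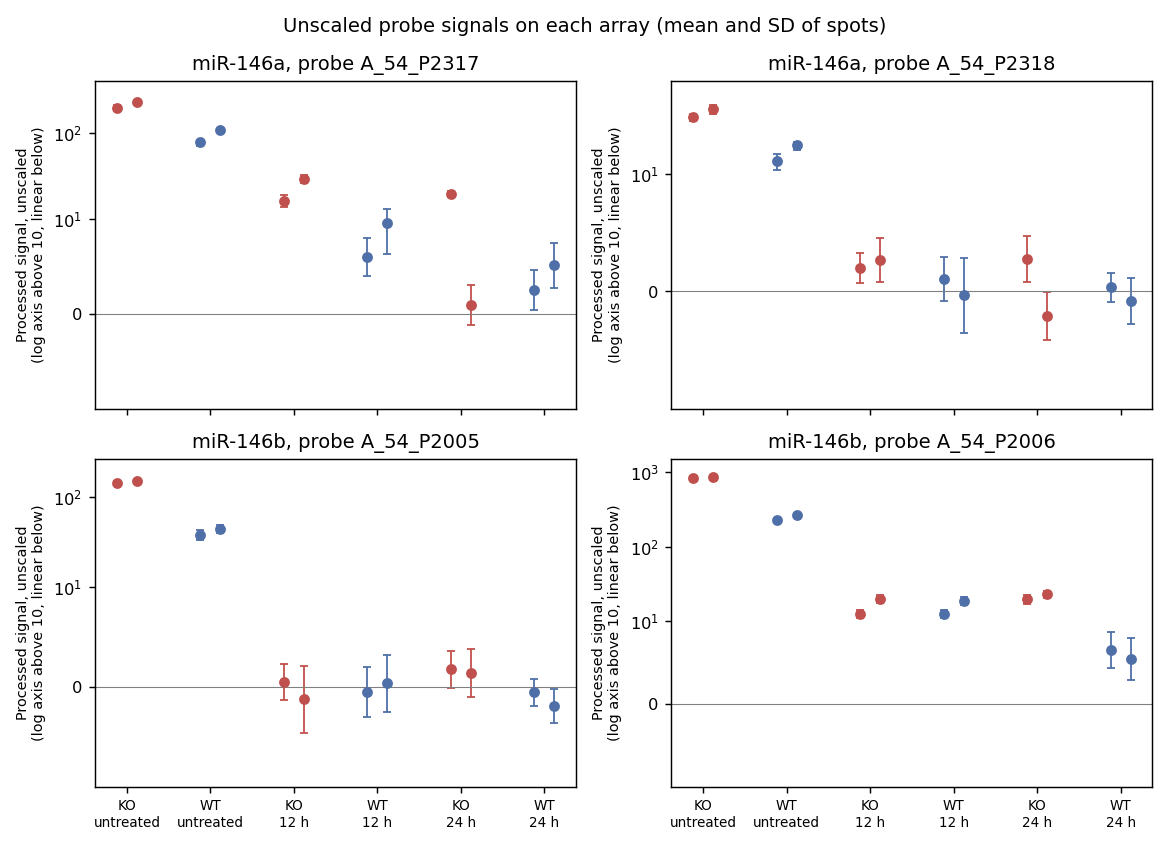
Mean processed signal of each of the 4 probes on each array, unscaled, on an axis that is logarithmic above 10 and linear below; error bars are the SD over the spots, and KO arrays (red) stand left of WT arrays (blue) in each condition. Probe A_54_P2006 lies between 5.42 and 23.3 on tunicamycin arrays and between 225 and 867 on untreated arrays, while A_54_P2005 and A_54_P2318 lie around 0 on all tunicamycin arrays.

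For comparisons, the probe means were summed per miRNA, each array was scaled to a common 75th percentile (taken over 95 mouse miRNAs that every array detected), signals under a floor of 10.04 (3.33 as log2) were set to it, and log2 was taken. A value at the floor says only that the signal was that or less. All levels and differences from here on are on that log2 scale unless called unscaled, and each group has 2 arrays.

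miR-146b stood at 8.28 and 8.34 in untreated KO cells and at 7.26 and 7.25 in untreated WT cells. At 12 h it stood at 4.51 and 3.73 in KO and at 4.69 and 4.46 in WT. At 24 h it stood at 4.94 and 5.05 in KO, and at 4.50 and the floor in WT, where the array at the floor did not detect it. The ranges of tunicamycin and untreated arrays lay more than 2 log2 units apart in both genotypes.

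From high to low, the order of the group means for miR-146b was untreated KO, untreated WT, KO at 24 h, WT at 12 h, KO at 12 h and WT at 24 h. Each of the first 3 groups in this order stood above the next with no overlap. WT at 12 h overlapped with KO at 12 h, and KO at 12 h with WT at 24 h, so these 3 have no order beyond their spread.

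miR-146a stood at 6.22 and 6.43 in untreated KO cells and at 5.73 and 5.98 in untreated WT cells. At 12 h it stood at 4.99 and 4.50 in KO and at 3.91 and 3.41 in WT, where neither array detected it. At 24 h it stood at 5.00 and the floor in KO, with the second array not detecting it, and at 3.41 and the floor in WT, with neither array detecting it. The detected values after tunicamycin were all in KO cells.

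The order for miR-146a was untreated KO, untreated WT, KO at 12 h, KO at 24 h, WT at 12 h and WT at 24 h. The 2 arrays of KO at 24 h were further apart (SD 1.18) than those of any other group of either miRNA, and they overlapped with KO at 12 h and with WT at 12 h. Both WT tunicamycin groups were below detection and have no order.

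**Figure D2:**
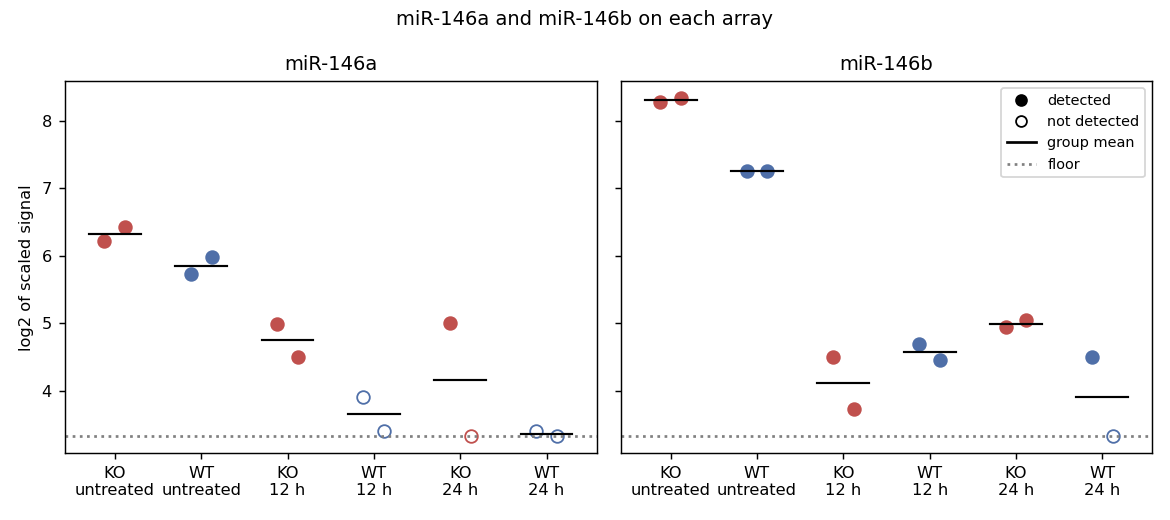
log2 of the scaled signal of miR-146a and miR-146b on each array, with KO (red) left of WT (blue) in each condition; open circles are arrays that did not detect the miRNA, short bars are group means and the dotted line is the floor at 3.33. No tunicamycin array exceeds 5.05, and untreated arrays lie between 5.73 and 6.43 for miR-146a and between 7.25 and 8.34 for miR-146b.

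The differences between 12 h of tunicamycin and untreated cells, which the choice of these miRNAs used, were as follows. miR-146b differed by -4.19 (SE 0.41) in KO cells, a fold of 18.2, and by -2.68 (SE 0.41) in WT cells, a fold of 6.40. On 1 of the 2 WT arrays at 12 h, replicate 2, no spot of either miR-146b probe was well above background, so that array measured it weakly. The software called miR-146b detected on both WT arrays. In KO replicate 2 at 12 h, 3 of 10 spots of probe A_54_P2006 were well above background. In both genotypes the miR-146b difference was the most negative of the 256 tested miRNAs. On the main scaling miR-146a differed by -1.58 (SE 0.51) in KO cells, and its mean was at least 3.86-fold lower in WT cells (fitted difference -2.19, SE 0.51). The bound uses the lowest signal that was called detected on the WT arrays at 12 h and leaves out the spread between arrays. Among the fitted differences of all tested miRNAs miR-146a had rank 18 in KO and rank 4 in WT, where it was not detected after treatment, counted from the most negative.

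At 24 h the differences from untreated cells were -3.31 (SE 0.41) in KO and -3.34 (SE 0.41) in WT for miR-146b, again the most negative of all tested miRNAs in both, with 1 of the 2 WT arrays at the floor. miR-146a differed by -2.17 (SE 0.51) in KO, rank 6, and its mean on the main scaling was at least 3.84-fold lower in WT (fitted -2.49, SE 0.51), rank 4. The KO value rests on its 2 unlike arrays: it was -3.0 without replicate 1 and -1.33 without replicate 2. Of all 256 tested miRNAs, 49.2% differed in KO and 50.8% in WT at 12 h at an adjusted p under 0.05, and 14.1% in KO and 17.6% in WT at 24 h. Counting lower calls only, the shares were 25.4% in both genotypes at 12 h, and 10.9% in KO and 14.8% in WT at 24 h, and the median difference over all tested miRNAs lay between -0.09 and 0 in each of these 4 comparisons.

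**Figure D3:**
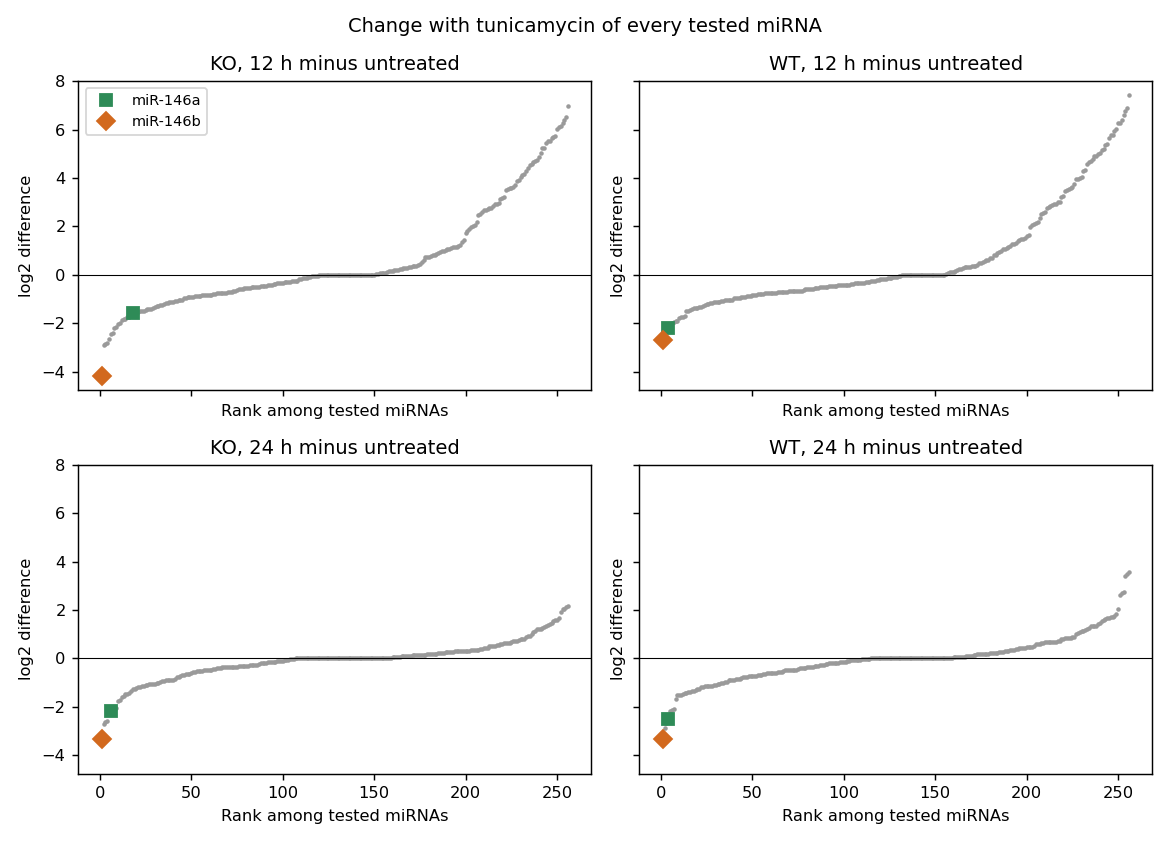
Difference from untreated cells, in log2 units, of each of the 256 tested miRNAs after 12 h (upper panels) and 24 h (lower panels) of tunicamycin, ranked from the most negative, in KO (left) and WT (right). miR-146b (orange diamond) has rank 1 in each panel, with -4.19 and -2.68 at 12 h in KO and WT and -3.31 and -3.34 at 24 h; miR-146a (green square) has ranks 18, 4, 6 and 4. Under normexp background correction the miR-146a differences were above 0, and with the software's totals that of miR-146b in WT at 12 h was.

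Because the total signal was itself lower after tunicamycin, the size of these differences depends on the scaling. Without any scaling, the summed signal of all mouse miRNAs at 12 h was 32.0% of the untreated one in KO and 49.2% in WT. The unscaled signal of miR-146b was 1.6% of the untreated one in KO and 5.47% in WT, and that of miR-146a was 9.94% in KO and 7.44% in WT. At 24 h the total was 20.9% in KO and 23.0% in WT, miR-146b was 2.32% in KO and 1.66% in WT, and miR-146a was 4.19% in KO and 3.25% in WT. Each of these percentages was under that of the total. Those of miR-146a in WT come from arrays that did not detect it. For miR-146a in KO and miR-146b in WT at 24 h, 1 of the 2 arrays did not detect the miRNA. These percentages therefore include signal that was not told from background. Fibroblast markers were lower too, most of them at 12 h: 10 of 10 tested were lower in KO at 12 h (median -1.36) and 8 of 10 in WT (median -0.85), while at 24 h 2 of 10 were lower in KO (median -0.42) and 3 of 10 in WT (median -0.64). Over all tested miRNAs 25.4% were lower in both genotypes at 12 h, and 10.9% in KO and 14.8% in WT at 24 h. In a fit of the 95 miRNAs detected on all arrays, 38 were lower in KO (median -0.44) and 33 in WT (median -0.42) at 12 h. The part of the fibroblast markers in the difference of the miR-146 miRNAs was not tested. The summed scaled signal of the 11 fibroblast markers was 13650 to 16690 in KO at 12 h against 29180 to 29940 in untreated KO, and 14890 to 15770 in WT at 12 h against 22830 to 24050 in untreated WT. Epithelial markers summed to between 0 and 8.18 and endothelial markers to between 0 and 26.0 in every group. Blood cell markers summed to 19.0 to 34.6 in KO groups and 58.8 to 85.5 in WT groups, with miR-155 the only one of them detected.

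One setting turned miR-146a. With normexp background correction and an offset of 50, its 4 differences from untreated cells were 0.19 and 0.25 in KO at 12 h and 24 h, and 0.76 and 0.67 in WT. That correction also raised the median difference of all tested miRNAs to between 0.89 and 1.23, and relative to that median miR-146a was at -0.71 and -0.83 in KO and at -0.48 and -0.49 in WT. miR-146b relative to that median was at -2.36 and -2.27 in KO and at -1.25 and -1.30 in WT.

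The dependence on XBP1 that the design asks about is the difference between the KO and the WT response, which is built from the changes that chose these miRNAs and is given with no test. For miR-146b, the KO change at 12 h was -1.51 (SE 0.58) away from the WT change, which is to say larger in size in KO. At 24 h the 2 changes were 0.03 (SE 0.58) apart, with 1 WT array at the floor. For miR-146a no such value is given, since no WT array detected it after tunicamycin and its WT changes are bounds. The miR-146b value at 12 h combines 2 differences: KO cells stood 1.06 above WT cells before treatment, and differed from them by -0.46 at 12 h.

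The genotype difference in untreated cells was not used to choose the miRNAs, although it shares its arrays with the changes that were. miR-146b was higher in untreated KO than in untreated WT cells by 1.06 (SE 0.41, 95% interval 0.08 to 2.03), in both scans (1.03 within the one and 1.08 within the other). Both probes gave the same ratio of KO to WT on the scaled signal, 2.07 for A_54_P2006 and 2.12 for A_54_P2005. The difference did not pass limma's threshold after adjustment over all tested miRNAs (adjusted p = 0.187). In this comparison 12.5% of the tested miRNAs passed. The fit assigns miR-146b an SE that takes in its spread near the floor in treated cells, and the untreated groups themselves had SDs of 0.04 in KO and 0.004 in WT. Of 29 alternatives run, 26 left this result unchanged and 3 passed. It passed when floor values were dropped from the fit, and with the floor at the 10th percentile of detected signals (limma adjusted p = 0.0409). It also passed with no scaling, where KO arrays had the brighter totals (1.80, limma adjusted p = 0.0106).

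Unscaled, the ratio of untreated KO to untreated WT was 3.48 for miR-146b and 2.31 for miR-146a, beside 1.82 for the summed signal of all mouse miRNAs. On the scaled values miR-146a was 0.47 higher in untreated KO (SE 0.51, 95% interval -0.73 to 1.68, limma adjusted p = 0.878), by 0.49 and 0.45 within the 2 scans. Its probes gave ratios of 1.38 and 1.42. The 2 KO arrays were above the 2 WT arrays for both miRNAs, but neither difference passed the test.

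At 12 h the genotypes differed in opposite directions for the 2 miRNAs, and 5.08% of the tested miRNAs passed. miR-146a was 1.09 higher in KO (SE 0.51, 95% interval -0.12 to 2.29, limma adjusted p = 0.386), with 1.08 and 1.09 within the scans. The detection bound on the group means was 1.79-fold, with no allowance for the spread between arrays or for other scalings. miR-146b differed by -0.46 in KO (SE 0.41, 95% interval -1.43 to 0.52, limma adjusted p = 0.795), with -0.18 and -0.73 within the scans. Neither passed the test. Of 29 alternatives run, 25 left the miR-146a result unchanged, 3 passed and 1 reversed it. Those that passed included leaving out either of the unlike KO arrays at 24 h, which widen the SE shared by all groups. The difference there was the same, 1.09, against WT arrays that did not detect miR-146a. With normexp the miR-146a difference was -0.56, and with no scaling the miR-146b difference was 0.04.

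At 24 h 7.81% of the tested miRNAs passed between genotypes, and neither of the pair did. miR-146b was 1.09 higher in KO (SE 0.41, 95% interval 0.11 to 2.06, limma adjusted p = 0.195), with 0.45 and 1.72 within the scans. Without replicate 1 of WT at 24 h it was 1.67 (limma adjusted p = 0.0332), the remaining WT array being the one at the floor, and with normexp it was -0.29 and with the software's totals -0.16. miR-146a was detected on 1 of the 2 KO arrays and on no WT array, so no bound is given. Its fitted value was 0.79 higher in KO (SE 0.51, 95% interval -0.41 to 2.00, limma adjusted p = 0.482). That value rested on 1 array: it was -0.04 without replicate 1 of KO at 24 h, and 1.63 (limma adjusted p = 0.0202) without replicate 2, and it was -0.41 with normexp.

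Between 24 h and 12 h, miR-146b was 0.88 higher in KO (SE 0.41, 95% interval -0.10 to 1.85, limma adjusted p = 0.139), with 0.44 and 1.32 within the scans. In WT it differed by -0.66 (SE 0.41, 95% interval -1.64 to 0.31, limma adjusted p = 0.307), with -0.19 and -1.13 within the scans. miR-146a differed by -0.58 in KO (SE 0.51, 95% interval -1.79 to 0.62, limma adjusted p = 0.425), with 0.01 and -1.18 within the scans. In WT neither time point detected it, so the comparison could not show a change and no fold or p is given. None of the others passed the test, where 39.5% of all tested miRNAs did in KO and 21.9% in WT. The KO value of miR-146b passed with quantile normalization (1.93, limma adjusted p = 0.0184), with the 75th percentile taken over all mouse miRNAs (1.92, adjusted p = 0.0144), with values at the floor left out (0.88, adjusted p = 0.0310), and without replicate 1 or replicate 2 of WT at 24 h (0.88, adjusted p = 0.0460 and 0.0440). The KO value of miR-146a was -1.42 (limma adjusted p = 0.0109) without replicate 1 of KO at 24 h and 0.25 without replicate 2.

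**Figure D4:**
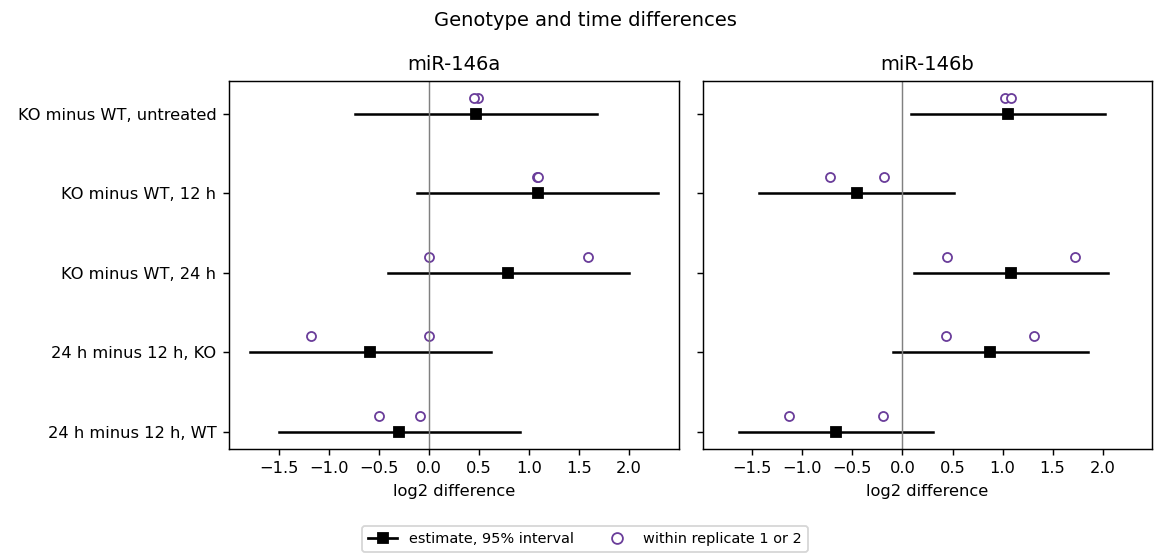
The 10 tested differences in log2 units: KO minus WT in each condition and 24 h minus 12 h in each genotype, with the estimate (square), its 95% interval (line) and the value within each replicate (open circles). The intervals of miR-146b between genotypes in untreated cells (0.08 to 2.03) and at 24 h (0.11 to 2.06) lie above 0, and none of the 10 passes after adjustment over all tested miRNAs. The difference of miR-146a between the times in WT could not show a change, since none of its arrays detected the miRNA. Normexp turns the sign of miR-146a between genotypes at 12 h and 24 h and of miR-146b at 24 h.

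The deposited per-miRNA values of miR-146b differed from the signals of its probes. The authors' deposited table holds, as log2, what the software calls the total gene signal, its summary of the probes of a miRNA. In that table miR-146b stood at 4.28 and 5.03 in KO at 12 h and at 5.93 and 6.70 in WT at 12 h, beside 9.25 and 9.39 in untreated KO and 7.40 and 7.69 in untreated WT. Scaled the same way as above, the authors' deposited table put miR-146b in WT cells at 12 h 0.22 above untreated cells, where its own probes put it at -2.68.

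On 7 of the 8 tunicamycin arrays the total of miR-146b equalled the total of its own probe A_54_P2006 plus the whole total of another miRNA. In WT at 12 h it was 60.9 in replicate 1, made of 8.26 from its own probe and 52.7 of miR-143, and 104 in replicate 2, made of 12.7 of its own and 91.7 of miR-140*. In KO at 12 h it was 19.5 and 32.7, with 11 and 19.4 of these from miR-146a. The share that was not its own signal was thus 56.5% and 59.4% in KO and 86.4% and 87.9% in WT, so it was larger on both WT arrays than on both KO arrays in the comparison that the design asks about.

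At 24 h the total of miR-146b was 26.0 in replicate 1 of KO, with 49.8% from miR-146a, and 36.8 in replicate 2, with 56.6% from miR-143. In replicate 1 of WT it was 42.6, with 89.8% from miR-140*, and in replicate 2 it was not detected. On the 4 untreated arrays the totals of miR-146a and miR-146b equalled the sums of their own probes, and so did every detected total of miR-146a. When the software's probe totals were summed over a miRNA's own probes instead, miR-146b in WT at 12 h was again -2.68 from untreated cells.

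The same sums were found across the arrays. Of 2169 detected totals of mouse miRNAs on the 12 arrays, 679 equalled the miRNA's own detected probes plus the total of a second miRNA, 1490 equalled the own probes alone and none was unmatched, within a tolerance of 0.02 or 0.1% of the total. In all 679 the second miRNA preceded the first in order of name, and in 666 it was the detected miRNA directly before it.

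**Figure D5:**
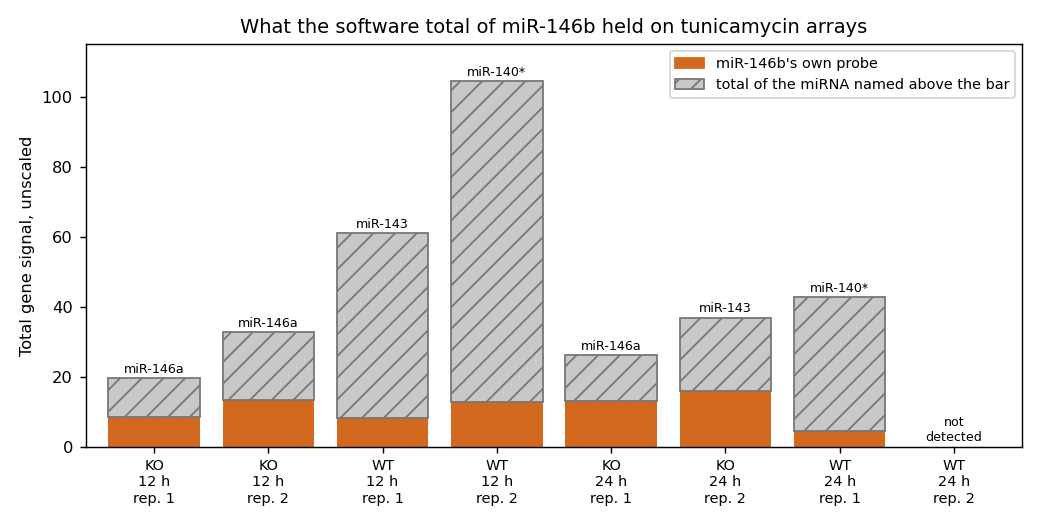
The software's total gene signal of miR-146b (unscaled) on each tunicamycin array, divided into its own probe (orange) and the total of the miRNA named above the bar (grey, hatched). The own part lies between 4.34 and 16.0 on the 7 arrays with a total, and the added part is largest, at 91.7, in replicate 2 of WT at 12 h; replicate 2 of WT at 24 h was not detected.

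The other arm of the Mir146b hairpin was on the array as miR-146b*, which matches miR-146b-3p of RefSeq, gCCCUAGGgacucaguucuggu with its seed in capitals, at chr19:46342828-46342849 of GRCm38.p6. Its 4 probes of 5 spots summed to 16.0 on average in untreated KO and 4.66 in untreated WT, unscaled, and to less than 0 in all tunicamycin groups. After scaling it was at the floor on all 12 arrays. No change in this strand could therefore be measured in any comparison.

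The miRNAs whose levels ran most like these over the 12 arrays were named by Pearson's r, as a description, since the arrays share their slide and total signal. For miR-146b they were miR-26a (0.958), miR-425 (0.957), miR-322 (0.952), miR-378 (0.947) and miR-143 (0.934). For miR-146a they were miR-378 (0.891), miR-143 (0.879), miR-425 (0.868), miR-542-5p (0.839) and miR-361 (0.838). The r of miR-146a with miR-146b was 0.857, so 3 other miRNAs ran closer to miR-146a than its seed partner did. miR-378, miR-143 and miR-425 were on both lists. miR-425 was above the floor on 5 arrays only, and miR-542-5p on 4.

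These neighbours had smaller differences than miR-146b, though miR-361 in WT at 12 h was close to it (-2.66 against -2.68). Not all had smaller differences than miR-146a. In KO at 12 h miR-143 (-1.99) and miR-378 differed more than miR-146a (-1.58), and miR-361, miR-425 and miR-542-5p differed less. At 12 h miR-26a differed from untreated cells by -1.84 in KO and -1.76 in WT, miR-322, which belongs to the miR-15/16 seed family, by -2.88 in KO and -1.91 in WT, and miR-378 by -1.86 in KO and -1.99 in WT. miR-322 and miR-143 also stood higher in untreated KO than in untreated WT, at 9.45 against 8.13 and at 6.85 against 5.80.

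Other miRNAs tied to NF-kB were read from a list of 17 names that are regulated by NF-kB or act on its pathway, of which 16 were on the array and 13 were tested. In untreated cells 2 were higher and 2 lower in KO than in WT, with a median difference of 0.19, where 5.08% of all tested miRNAs were higher and 7.42% lower with a median of -0.002. At 12 h of tunicamycin 1 was higher and 7 lower in KO (median -0.90), and 5 were lower and none higher in WT (median -0.44). Over all tested miRNAs the lower calls at 12 h were 25.4% in both genotypes, and the higher calls 23.8% in KO and 25.4% in WT. At 24 h 1 was higher and 2 lower in KO (median -0.34), and 1 was lower in WT (median -0.16), where 10.9% in KO and 14.8% in WT of all tested miRNAs were lower, and 3.12% in KO and 2.73% in WT higher. miR-132 and miR-212, a cluster best known from neurons, were at the floor on every array.

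miR-155, which rises in activated macrophages and lymphocytes and promotes inflammatory signalling, had differences of the opposite sign to both of the pair in some comparisons. These were between genotypes in untreated cells and at 24 h, and, on the scaled values only, with tunicamycin in KO. Between genotypes at 12 h the sign was opposite to that of miR-146a only. miR-155 stood at 3.44 and 3.41 in untreated KO cells and at 6.21 and 6.27 in untreated WT cells, so KO differed by -2.82 (SE 0.21, limma adjusted p = 0.000157), where miR-146b was 1.06 higher. At 12 h it stood at 4.61 and 4.19 in KO and at 5.80 and 5.68 in WT, and at 24 h at 4.84 and 4.68 in KO and at 6.18 and 5.99 in WT. KO thus differed from WT by -1.34 at 12 h (limma adjusted p = 0.0112) and by -1.33 at 24 h (limma adjusted p = 0.00976). In KO cells miR-155 rose with tunicamycin by 0.97 at 12 h (SE 0.21, limma adjusted p = 0.00768) and by 1.33 at 24 h (adjusted p = 0.00695), while in WT cells the differences were -0.50 (adjusted p = 0.0910) and -0.16 (adjusted p = 0.758).

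miR-9 and miR-9*, the 2 arms of a hairpin that responds to NF-kB in human monocytes, were above the floor on both untreated KO arrays (4.39 and 4.59 for miR-9, 4.53 and 4.59 for miR-9*) and on no untreated WT array. After tunicamycin a single value was above the floor, 4.04 for miR-9* in replicate 1 of KO at 24 h. They are the 2 higher calls of the list in untreated KO, 2 of its 7 lower calls in KO at 12 h and both of its lower calls in KO at 24 h. With nearly all other values fixed at the floor, their spread was not measured and no p is given. miR-224 was at the floor on both untreated KO arrays and at 5.24 and 5.43 on the untreated WT arrays. Its fitted difference of -2.01 in untreated KO is therefore a bound, and no p is given for it either.

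Of the list, miR-21, miR-125b-5p, miR-199a-5p and miR-30b were lower at 12 h in both genotypes, and the first 3 of these are also on the list of fibroblast markers. miR-199a-5p differed by -1.76 in KO (SE 0.29, limma adjusted p = 0.00252) and -1.17 in WT (adjusted p = 0.0134), and miR-21 by -0.96 in KO (SE 0.20, adjusted p = 0.00692) and -0.60 in WT (adjusted p = 0.0429). At 24 h miR-199a-5p was at -0.71 in KO and -0.88 in WT and miR-21 at -0.42 in KO and -0.30 in WT, and neither passed in either genotype. miR-125b-5p was still lower in WT at 24 h (-0.67, SE 0.15, limma adjusted p = 0.0232) and at -0.34 in KO.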

How the data were processed

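Per the labels' protocols, 100 ng of total RNA was labelled with Cy3 and hybridised to 1-colour Agilent miRNA arrays. Per the submitters' processing notes, Agilent Feature Extraction 10.7.1.1 read the scans, and per the file headers the deposited spot intensity (processed signal) is background-subtracted with no scaling between arrays. The deposited series table holds log2 values per miRNA, equal to within 1.15e-06 to the total gene signal of that software on a log2 scale. No genome build is named in the sources used here.

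Outlier and control spots were left out, spots were averaged per probe and probes summed per miRNA (13000 spots, 1857 probes, 611 mouse and 39 viral miRNAs). Arrays were scaled to a common 75th percentile over 95 miRNAs detected on all arrays, with a floor at the 5th percentile of detected signals, 10.04. A miRNA was tested if detected on both arrays of a group (256 miRNAs). miR-146a met this in both untreated groups and in KO at 12 h, and miR-146b in every group except WT at 24 h. Both are highest in their untreated groups. limma 3.58.1 in R 4.3.3 fitted 1 mean per group to all 12 arrays (lmFit, eBayes with a trend, 6 residual and 0.981 prior degrees of freedom), with Benjamini-Hochberg adjustment over the tested miRNAs and a threshold of 0.05. The procedure was checked on simulated data. For a group with no detected array, a fold is a bound: the brighter group's mean against, per array, the highest of the floor, the lowest detected signal and the miRNA's own signal. A bound is given only where both arrays of the brighter group detected the miRNA. It concerns the group means under the main scaling and floor, and takes in no spread between arrays. The number of arrays limits the precision. The p-values rest on the spread between the 2 experiments of a group, pooled over all 6 groups and moderated across miRNAs by eBayes.

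Members and lists were chosen with earlier results of these data known. Text names the 2 miRNAs, the other arm on the array, the 5 miRNAs with the highest Pearson's r with each, and tested members of the NF-kB list. Alternatives numbered 16 beside leaving out each array, and 2 were added after seeing the data (scan as a fixed block, and sums of the software's probe totals). Normexp was run on the median spot signal, since the files used here hold no mean signal. Genotype and time contrasts share arrays with the changes that chose the members.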

Additional observations from a re-analysis of the deposited data

Results flagged for a closer look

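In the software's totals, which no comparison above uses as its main value, miR-146b* had a signal of 611 and 676 on the 2 untreated KO arrays and was not detected on the 2 untreated WT arrays. These totals equalled those of miR-146b on the same arrays (607 and 670) plus 4.53 and 6.14 from probe A_54_P3628 of miR-146b* itself. The share that came from miR-146b was 99.3% and 99.1%. From its own probes miR-146b* was at the floor on all 12 arrays.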

How the results depend on the processing

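miR-146b stayed below untreated cells under every alternative run in KO at 12 h (-5.99 to -1.47), in KO at 24 h (-5.43 to -1.19) and in WT at 24 h (-4.55 to -0.14). In WT at 12 h it turned to 0.22 with the software's totals and with the deposited log2 values, which held other miRNAs' signal there. Where nothing else is said, the cause of a move was not tested. With those 2 settings miR-146b was also at -3.11 (KO, 12 h), -2.50 (KO, 24 h) and -1.34 (WT, 24 h) from untreated cells and at -0.16 between genotypes at 24 h. miR-146a was then at -1.56 from untreated WT cells at both times and at 0.075 between 24 h and 12 h in KO.

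With normexp, miR-146a differed from untreated cells by 0.19 (KO, 12 h), 0.25 (KO, 24 h), 0.76 (WT, 12 h) and 0.67 (WT, 24 h), between genotypes by -0.56 at 12 h and -0.41 at 24 h, and between 24 h and 12 h in KO by 0.064. miR-146b then differed from untreated cells by -1.47 and -1.19 in KO and by -0.021 and -0.14 in WT, and between genotypes at 24 h by -0.29. Without scaling, where the median of all tested miRNAs itself lay between -1.83 and -1.36, miR-146a was at -3.38 and -3.93 in KO and at -3.15 at both times in WT, and miR-146b at -5.99 and -5.43 in KO and at -4.22 and -4.55 in WT. The genotype difference of miR-146b was then 1.80 in untreated cells (limma adjusted p = 0.0106) and 0.039 at 12 h.

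With quantile normalization miR-146a was at -2.31 from untreated KO cells at 12 h, and at 0.48 (KO) and 0.0064 (WT) between 24 h and 12 h. miR-146b was at -4.92 (KO) and -3.86 (WT) from untreated cells at 12 h, and at 1.93 (KO, limma adjusted p = 0.0184) and 0.22 (WT) between the times. With the 75th percentile over all mouse miRNAs the same values were -2.42 and 0.37 for miR-146a in KO, and for miR-146b -5.01 (KO), -3.26 (WT), 1.92 (KO, limma adjusted p = 0.0144) and 0.054 (WT). With a floor at the 1st percentile miR-146b was at -3.81 from untreated WT cells at 24 h. With a floor at the 10th percentile miR-146a was there at -1.90, and miR-146b passed between untreated genotypes (1.06, limma adjusted p = 0.0409). With floor values left out, miR-146a passed between genotypes at 12 h (1.09, limma adjusted p = 0.04996), was at 0.25 between the times in KO and at -1.33 from untreated KO cells at 24 h. miR-146b then passed between untreated genotypes (1.06, limma adjusted p = 0.0365) and between the times in KO (0.88, limma adjusted p = 0.0310), and was at -2.76 from untreated WT cells at 24 h.

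Leaving out 1 array at a time gave, for miR-146a, 0.84 to 1.34 between genotypes at 12 h, -0.042 to 1.63 at 24 h, -1.42 to 0.25 between the times in KO and -3.0 to -1.33 from untreated KO cells at 24 h. For miR-146b it gave 0.50 to 1.67 between genotypes at 24 h, 0.49 to 1.26 between the times in KO and -3.93 to -2.76 from untreated WT cells at 24 h. With the replicate block, miR-146b differed between untreated genotypes by 1.06 (limma adjusted p = 0.159) and between genotypes at 24 h by 1.09 (adjusted p = 0.163), and no call of either miRNA changed. Same-numbered arrays of a slide share a scan. Their deviations correlated at -0.0797 to 0.867 over the 7 pairs of groups on 1 slide, 4 of them over 0.1, and at -0.547 to 0.278 over the 8 pairs across slides, 2 of them over 0.1. The KO and WT groups of the same condition correlated at 0.867 (untreated), 0.415 (12 h) and 0.522 (24 h). The fit without a block stayed the main one, so its genotype comparisons do not use this pairing. With scan as a fixed or a random block no call of either miRNA changed. Fits limited to miRNAs detected on all arrays hold neither of the pair.

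The number of miRNAs past the threshold between genotypes was 32 in untreated cells (11 to 56 over the alternatives), 13 at 12 h (0 to 40) and 20 at 24 h (0 to 58). From 12 h to 24 h it was 101 in KO (34 to 139) and 56 in WT (12 to 104). Against untreated cells it was 126 in KO (48 to 196) and 130 in WT (40 to 192) at 12 h, and 36 in KO (15 to 188) and 45 in WT (16 to 191) at 24 h. Lower and higher calls at 12 h were 65 and 61 in KO and 65 and 65 in WT, against 157 and 39 in KO and 139 and 37 in WT without scaling, and 19 and 164 in KO and 11 and 181 in WT with normexp. Signal over background limits both miRNAs after tunicamycin, where probes A_54_P2005 and A_54_P2318 had no spot well above background, and A_54_P2006 had 0 to 3 of 10 on 4 of 8 arrays, 3 of them WT.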
